A study of Mus musculus with 6 samples.

Results

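The genes described here make and load the molecules that show peptides to T cells, together with a few relatives of those molecules. There are 36 of them among the 23412 gene rows of the count table, chosen as a named list of major histocompatibility complex (MHC) class I and class II genes, peptide-loading genes and immunoproteasome genes. All 36 have a row in the table, and 32 passed the filter on low counts and were tested. The libraries hold liver RNA of C57BL/6J mice labelled as 8 weeks of age, all of them kept on a high-fat diet for 4 weeks. The 3 libraries called Lira161, Lira162 and Lira164 came from mice given liraglutide under the skin at 300 µg/kg for 3 days, and the 3 called PBS155, PBS157 and PBS158 came from mice given phosphate-buffered saline (PBS) in its place. Liraglutide activates the glucagon-like peptide 1 receptor, and the comparison asks how short treatment changed liver transcripts on this diet.

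MHC class I molecules carry peptides cut in the cytosol by the proteasome. The peptides are pumped into the endoplasmic reticulum by the transporter TAP, trimmed there and loaded onto a heavy chain paired with beta-2 microglobulin. Nearly all cells of the body make class I, hepatocytes at a low level, and Nlrc5 is its main transcriptional activator. Class II molecules carry peptides taken up from outside and are made mainly by professional antigen-presenting cells. In the liver these are Kupffer cells, dendritic cells and B cells, with sinusoidal endothelial cells also able to make some, under control of the activator Ciita. Interferon gamma induces both routes.

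Of the 32 tested genes 1 fell and none rose under liraglutide, and the gene that fell was Psmb10, which encodes a catalytic subunit of the immunoproteasome. The class I heavy chain genes H2-K1 and H2-D1 differed by less than the spread between libraries. All 3 class II chain genes had a higher mean under liraglutide, by 1.59-fold to 1.77-fold, but none of them passed the test. Genes were tested with the quasi-likelihood test of edgeR, and p-values were adjusted by the Benjamini-Hochberg method over all 12626 tested genes, with a threshold of 0.05. It called 8.77% of all tested genes, 4.08% higher and 4.69% lower, against 3.12% of these members. Of the genes called under TMM scaling 46.5% were higher, and 57.2% when counts were scaled by library totals alone. At an unadjusted p below 0.05, 12 of the 32 members (37.5%) and 25.6% of all tested genes passed. The number called is tied to the tool. The Wald test of DESeq2 called 4 members higher (H2-Aa, H2-Ab1, H2-Eb1 and Cd74) and 2 lower (Psmb10 and H2-Q1). These are 6 of the 34 members in that test, which called 9.56% of its 16949 genes either way. That share is also the background for the DESeq2 counts of other lists below.

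The median log2 fold change of the 32 members was -0.06, against 0.01 over all tested genes, and this near-zero value joins parts that lay on either side of it. For the 20 tested genes of the class I route (heavy chains, B2m, peptide loading, peptide generation and Nlrc5) the median was -0.21, with 14 values below 0 and 6 above. For the 9 genes of the class II route the median was 0.67, with 8 values above 0 and 1 below. Groups did not overlap for 12 members (37.5%), 4 higher and 8 lower, against 31.3% of all tested genes, a share close to the background. No test was made on these medians, because the genes were listed with earlier results of these data known.

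**Figure D1:**
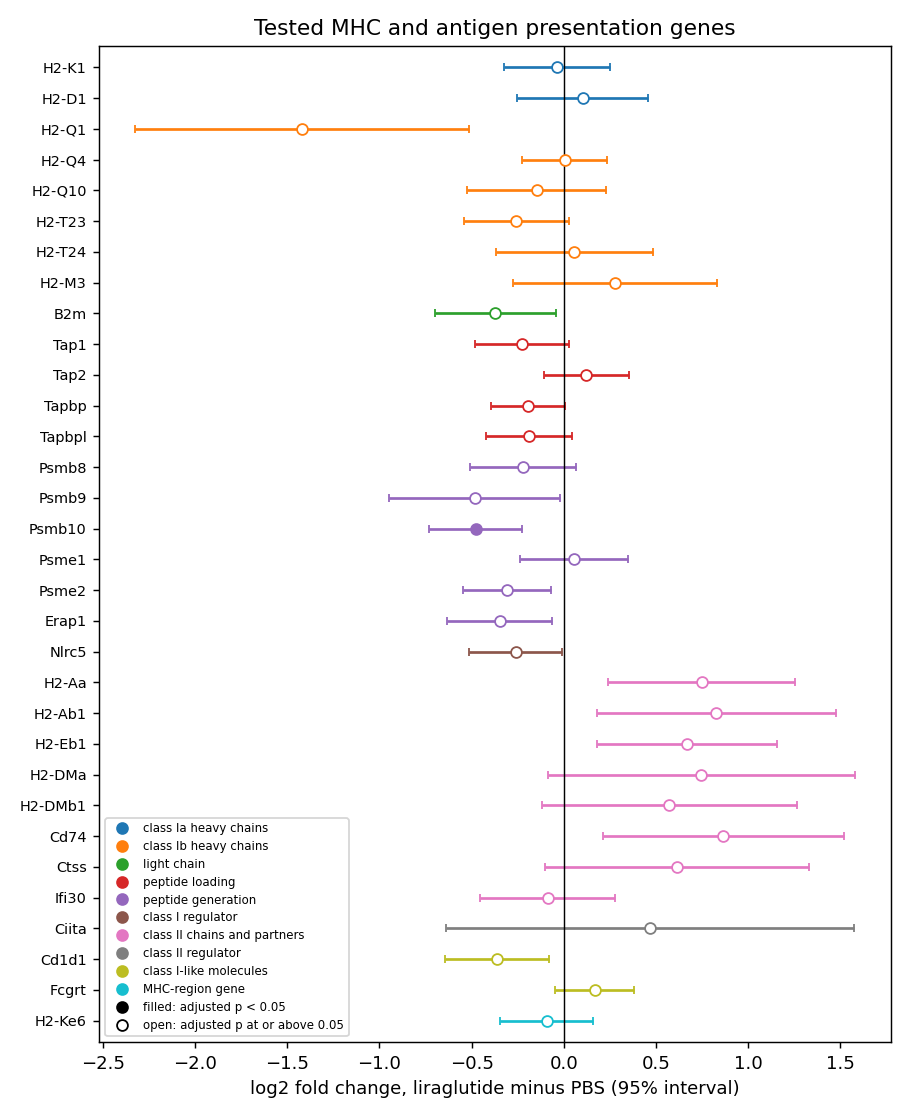
Log2 fold change of each tested gene, liraglutide minus PBS, with its 95% interval from the edgeR fit on 3 libraries per group, coloured by role. Psmb10 at -0.48 is the filled point, all other points are open, and the class II chain genes lie between 0.67 and 0.83.

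Total counts per library lay between 20888991 and 27007182. Nothing in the labels states that each replicate was its own animal, and the p-values rest on the spread among these libraries, which may be technical. Library values below are CPM, counts scaled to library size with TMM factors, and they are given in the order Lira161, Lira162, Lira164 and then PBS155, PBS157, PBS158. Means are given ± SD over 3 libraries and log2 fold changes ± SE. In bulk liver, fewer cells of a type and less RNA per cell cannot be told apart. Hepatocyte transcripts dominated as the tissue label says: the 8 hepatocyte markers summed to between 78730.3 and 111075 CPM per library, against 2.64 to 5.57 CPM for 5 tested B cell markers.

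The stretches of DNA just before the gene starts are shown first, because MHC genes are known for a shared set of elements there. These are an X box and a Y box bound by the RFX, CREB and NF-Y factors that recruit Nlrc5 or Ciita, and, in class I genes, a kappaB site and an interferon-stimulated response element (ISRE). Promoters of 27 of the 36 genes were found in the RefSeq table (GRCm38.p6), and the 250 bases before the start of each were searched on both strands. Capitals mark letters of the Y box CCAAT, the X2 core TGACG, the ISRE core (GAAA, any pair of letters, GAAA), the interferon gamma activation site TTCNNNGAA and the kappaB consensus. Matches to different motifs, or to 1 motif on both strands, can overlap. H2-K1 and B2m are shown as the most abundant chains of the classical class I molecule, H2-Q10 as a liver-expressed relative of H2-K1, H2-Aa and H2-Eb1 for class II, and Psmb10 as the gene that fell. The stretch between the RefSeq starts of Tap1 and Psmb9, which are transcribed away from each other, is printed on the Tap1 strand.

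H2-K1, chr17:34000348-34000547, minus strand: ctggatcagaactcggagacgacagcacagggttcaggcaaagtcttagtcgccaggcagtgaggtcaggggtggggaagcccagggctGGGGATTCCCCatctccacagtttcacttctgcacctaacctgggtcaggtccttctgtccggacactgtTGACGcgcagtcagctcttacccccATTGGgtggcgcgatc
H2-Q10, chr17:35469889-35470088, plus strand: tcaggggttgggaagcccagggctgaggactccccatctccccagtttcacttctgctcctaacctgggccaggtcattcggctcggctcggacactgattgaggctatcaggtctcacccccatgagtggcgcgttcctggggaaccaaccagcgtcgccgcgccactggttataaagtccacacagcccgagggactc
B2m, chr2:122147487-122147686, plus strand: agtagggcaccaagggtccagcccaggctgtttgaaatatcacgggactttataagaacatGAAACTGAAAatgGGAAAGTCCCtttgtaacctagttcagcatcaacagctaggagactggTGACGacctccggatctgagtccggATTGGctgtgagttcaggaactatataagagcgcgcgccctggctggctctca
H2-Aa, chr17:34287824-34288023, minus strand: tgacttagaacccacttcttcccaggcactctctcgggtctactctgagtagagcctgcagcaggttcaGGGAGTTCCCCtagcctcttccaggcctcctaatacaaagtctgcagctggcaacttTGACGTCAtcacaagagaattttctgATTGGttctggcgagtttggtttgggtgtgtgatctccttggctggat
H2-Eb1, chr17:34305667-34305866, plus strand: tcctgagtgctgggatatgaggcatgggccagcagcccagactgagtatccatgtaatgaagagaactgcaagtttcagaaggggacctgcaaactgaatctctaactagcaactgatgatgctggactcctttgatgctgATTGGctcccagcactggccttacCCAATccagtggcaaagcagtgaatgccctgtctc
Tap1 and Psmb9, chr17:34187331-34187555, plus strand: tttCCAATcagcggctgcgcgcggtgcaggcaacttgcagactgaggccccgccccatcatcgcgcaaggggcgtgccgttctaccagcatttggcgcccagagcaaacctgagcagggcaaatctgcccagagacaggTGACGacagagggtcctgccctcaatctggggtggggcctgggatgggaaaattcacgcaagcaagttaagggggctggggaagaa
Psmb10, chr8:105938393-105938592, minus strand: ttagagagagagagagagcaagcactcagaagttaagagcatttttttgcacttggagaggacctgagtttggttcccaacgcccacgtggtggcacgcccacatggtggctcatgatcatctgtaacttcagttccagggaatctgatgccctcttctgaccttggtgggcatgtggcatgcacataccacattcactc

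In H2-K1 the kappaB match began 111 bases before the start, the X2 core 41 bases and the Y box 16 bases before it. The H2-Q10 stretch held no match to any of the 5 motifs. B2m held the ISRE core, the kappaB consensus, the X2 core and the Y box, beginning 139, 126, 78 and 53 bases before its start. H2-Aa held the kappaB consensus, the X2 core and the Y box at 131, 74 and 48 bases, and H2-Eb1 held the Y box letters at 59 and 35 bases and none of the other motifs. The shared stretch of Tap1 and Psmb9 held an X2 core 86 bases before Tap1, which is 144 bases before Psmb9, and a Y box on the side of Psmb9, 8 bases before its start. The Psmb10 stretch held none of the 5. It was placed by the RefSeq start, and part of it lies inside the gene as GENCODE places it (105935735 to 105938444). The stretch of Tap1 and Psmb9 likewise lies inside Psmb9 as GENCODE places that gene (34181987 to 34187764). Among the 27 promoters the Y box letters were in 17 (63.0%, against 34.5% of 27025 gene starts), the X2 core in 13 (48.1% against 17.9%), the kappaB consensus in 10 (37.0% against 3.75%), the ISRE core in 4 (14.8% against 3.04%) and the activation site in 2 (7.41% against 7.18%). A match is a run of letters and not a bound site, and several of these genes are paralogs with related promoters. The Y box and the X2 core between Tap1 and Psmb9 were each counted for both genes. A missing match says only that these letters are not in this window.

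Class I heavy chains bind the peptide and face the T cell. H2-K1, a classical (class Ia) chain on chromosome 17 (33996017 to 34000347, GRCm38, GENCODE M21), was at 1356, 1318 and 1177 CPM under liraglutide and at 1161, 1426 and 1364 CPM under PBS. The highest and the lowest of these 6 values are both PBS libraries, and the groups overlapped. Its log2 fold change was -0.04 ± 0.13 (95% interval -0.32 to 0.25; adjusted p = 0.885). H2-D1, the other classical chain of this strain (35262730 to 35267499), was at 136, 107 and 105 against 92.3, 133 and 99.6 CPM. These values overlapped as well, and the log2 fold change was 0.10 ± 0.16 (adjusted p = 0.725).

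H2-Q10 encodes a nonclassical (class Ib) chain that hepatocytes make and secrete, which makes it a liver product among these genes. It was at 1689.8, 1604 and 1142 CPM under liraglutide and 1471, 1600.3 and 1839 under PBS. Library Lira164 was the lowest of the 6 and the others were mixed (log2 fold change -0.15 ± 0.17; adjusted p = 0.624). H2-T23, which encodes Qa-1, the ligand of an inhibitory receptor of natural killer cells, was at 229 ± 15.1 against 274 ± 39.5 CPM (-0.26 ± 0.13; adjusted p = 0.241). H2-Q4 was at 47.7 ± 4.52 against 47.5 ± 3.20 CPM, and H2-T24 and H2-M3, which presents formylated peptides of bacteria and mitochondria, had log2 fold changes of 0.06 ± 0.19 and 0.28 ± 0.25. Among the tested class Ib genes H2-Q1 had the smallest p, at 1.54, 1.43 and 0.708 CPM against 4.87, 1.97 and 2.93. Its groups did not overlap, and the value did not pass the test (-1.42 ± 0.40; adjusted p = 0.0605). It rests on 17 to 37 counts per library under liraglutide and 46 to 133 under PBS. H2-Q1 passed with DESeq2 (adjusted p = 0.00786), without the low-count filter (0.0382) and without library PBS157 (0.0389). With any other library left out it did not pass (largest edgeR adjusted p = 0.144).

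The other 4 class Ib genes were not tested. H2-Q2 had between 6 and 23 counts per library. H2-T22 had 2 counts in PBS158 and 0 in the other libraries, and H2-Q6 and H2-Q7, which encode nonclassical chains of the Q region, had 0 in all 6. The table also has rows for H2-Q8, H2-Q9 and H2-T9, close relatives of these genes, and those were at 0 in all 6 libraries too. How reads that match several genes were counted is not stated in the sources used, so a 0 in these rows is not read as absence of the transcript. As a measure of likeness, 32.0% of all 50-letter fragments of H2-Q6 transcripts, 26.4% of those of H2-Q7 and 34.5% of those of H2-T22 also stood in transcripts of another GENCODE M21 gene. For H2-K1, H2-D1, H2-Q10 and H2-Q1 these shares were 9.6%, 12.8%, 19.0% and 15.0%, and for B2m, H2-Ab1, H2-Eb1 and Psmb10 they were 0.0%. Fragments were taken from every annotated transcript of a gene, fully spliced or not, so shares among spliced transcripts alone may differ. Some relatives outside the members did have counts. H2-T10 held 31.2% of the fragments of H2-T22 and had 54 to 78 counts per library. H2-Q5 held 8.7% of those of H2-Q7 and had 54 to 106 counts. Values of single heavy chain genes are therefore uncertain where reads could be shared. The sum over the 12 heavy chain members does not depend on how reads were split among these 12. It can still depend on reads shared with class I genes outside them, and it would miss reads discarded for matching several genes. The sum was 3163 ± 389 CPM under liraglutide and 3394 ± 339.8 CPM under PBS. It was 3460.2, 3307 and 2723 against 3009.6, 3516 and 3656 CPM, so the groups overlapped here as well.

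Beta-2 microglobulin, the product of B2m (chromosome 2, 122147686 to 122153083), is the light chain that every class I heavy chain needs to reach the surface. B2m was at 1367, 1058 and 1249 CPM under liraglutide and 1380.5, 1805 and 1567 under PBS. All 3 PBS libraries were above all 3 liraglutide libraries, but PBS155 lay close to Lira161, and the change did not pass the test (log2 fold change -0.37 ± 0.15; 95% interval -0.70 to -0.04; adjusted p = 0.148). With each library left out in turn its log2 fold change stayed between -0.47 and -0.27. Within a library, the ratio of H2-K1 counts to B2m counts was 0.992, 1.24 and 0.943 under liraglutide and 0.841, 0.790 and 0.871 under PBS. The ratio was higher in each liraglutide library (difference of mean log2 ratios 0.34, exact permutation test, two-sided p = 0.1, the smallest that 3 against 3 allows). Over the 8 ratios computed, the adjusted p was 0.2. The ratio of H2-Q10 to B2m was 1.24, 1.52 and 0.914 against 1.07, 0.886 and 1.17, and here the groups overlapped (difference 0.21, exact permutation p = 0.4, adjusted p = 0.533). The groups also overlapped for H2-D1 to H2-K1 (difference 0.14, exact permutation p = 0.4), H2-Q10 to H2-K1 (-0.13, p = 0.5) and Cd74 to H2-Ab1 (0.04, p = 0.9).

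Taking length into account, in CPM per kilobase of exon, B2m had the highest mean level of these genes at 1633, followed by H2-K1 at 443 and H2-Q10 at 358. Exon length was that of the merged exons of all annotated transcripts of a gene, 2938 bp for H2-K1 and 4348 bp for H2-Q10. The order of H2-K1 and H2-Q10 depends on this choice, since their mean CPM over the 6 libraries were 1300 and 1557.5. The ranges over the 6 libraries overlapped for H2-K1 (395 to 485) and H2-Q10 (263 to 423). Next came Fcgrt at 117, Cd1d1 at 110.0, H2-T23 at 87.0 and H2-D1 at 43.5 CPM per kilobase, with overlapping ranges between Fcgrt and Cd1d1 and between Cd1d1 and H2-T23. The class II chain genes had mean levels between 5.42 and 7.76 CPM per kilobase, and Cd74 was at 23.3.

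**Figure D2:**
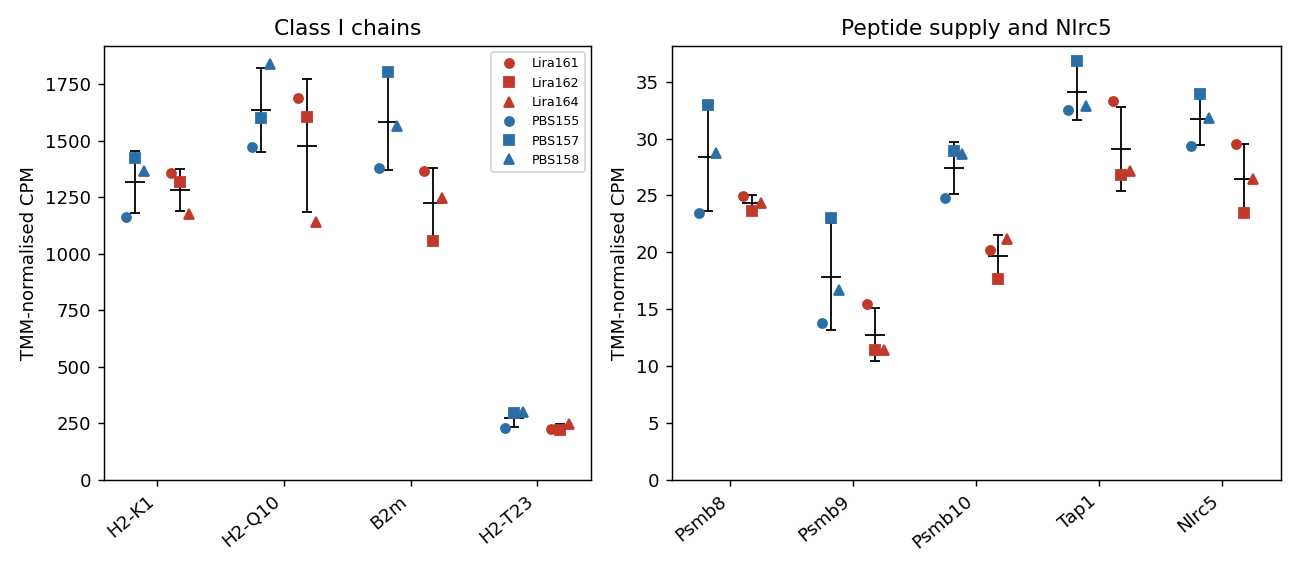
CPM of class I chain genes (left) and of immunoproteasome genes, Tap1 and Nlrc5 (right) in each library, with bars for mean ± SD (3 libraries per group). H2-K1 values overlap, at 1177 to 1356 CPM under liraglutide and 1161 to 1426 under PBS. The Psmb10 values under liraglutide (17.7 to 21.2) lie below those under PBS (24.8 to 28.9).

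Before a peptide reaches the heavy chain it is cut by the proteasome, in which interferon can swap the 3 catalytic subunits Psmb5, Psmb6 and Psmb7 for Psmb8, Psmb9 and Psmb10. Psmb10 (chromosome 8, 105935735 to 105938444) was at 20.2, 17.7 and 21.2 CPM under liraglutide and 24.8, 28.9 and 28.6 under PBS. The groups did not overlap, and the gene fell 1.39-fold (log2 fold change -0.48 ± 0.11, adjusted p = 0.0307). Leaving out Lira161, Lira162, PBS157 or PBS158 ended the call (adjusted p = 0.0827, 0.132, 0.103 and 0.107), while the log2 fold change stayed between -0.56 and -0.41 whichever library was left out. DESeq2 also called it (adjusted p = 0.0142).

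The other immunoproteasome genes had means on the same side but did not pass the test. Psmb9 was at 15.4, 11.4 and 11.4 against 13.8, 22.99 and 16.7 CPM (-0.48 ± 0.20; adjusted p = 0.179), with PBS155 below Lira161. Psmb8 was at 24.98, 23.6 and 24.4 against 23.5, 32.9 and 28.7 CPM (-0.22 ± 0.13; adjusted p = 0.310), and here PBS155 was the lowest of all. Psme1 and Psme2 encode the 2 subunits of the PA28 cap that opens the proteasome. Psme2 was at 53.5 ± 2.25 against 66.3 ± 7.85 CPM (-0.31 ± 0.11; adjusted p = 0.102; 0.0472 without PBS155) and Psme1 at 79.9 ± 4.01 against 77.1 ± 13.4 CPM (0.05 ± 0.13; adjusted p = 0.833). Erap1, the peptidase that trims peptides in the endoplasmic reticulum, was at 72.5 ± 12.7 against 92.3 ± 3.86 CPM without overlap (-0.35 ± 0.13; adjusted p = 0.121; 0.0201 without Lira164). For Psme2 and Erap1 no other omission passed, with edgeR adjusted p up to 0.291 and 0.304. Exons of Erap1 overlap those of Cast on the opposite strand over 834 bp. No source used here states whether the counting took account of strand.

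The constitutive partners stood on the other side of 0. Of 11 genes for constitutive beta subunits, other activators and assembly, none was called and 2 had an unadjusted p below 0.05, while the median log2 fold change was 0.19, with 10 of 11 values above 0. DESeq2 called 2 of them higher. Psmb4, which encodes a structural beta subunit, had the smallest p, at 191 ± 30.1 against 138 ± 20.7 CPM (0.46 ± 0.15; adjusted p = 0.0866). Psmb5 was at 47.8 ± 10.07 against 33.7 ± 4.18 CPM (0.51 ± 0.16; adjusted p = 0.0926). Psmb6 was at 116 ± 12.7 against 99.6 ± 10.6 CPM and Psmb7 at 169 ± 12.3 against 148 ± 15.4 CPM.

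A ratio of raw counts within a library does not depend on scaling, so each immunoproteasome gene was set against the subunit it replaces. The ratio of Psmb8 to Psmb5 was 0.483, 0.426 and 0.669 under liraglutide and 0.805, 0.958 and 0.767 under PBS. The ratio of Psmb9 to Psmb6 was 0.126, 0.0924 and 0.113 against 0.158, 0.221 and 0.155, and that of Psmb10 to Psmb7 was 0.120, 0.0971 and 0.135 against 0.189, 0.190 and 0.178. All 3 ratios were lower in every liraglutide library than in any PBS library. Mean log2 ratios differed by -0.70, -0.68 and -0.68. In each case the exact permutation test gave a two-sided p of 0.1, the smallest that 3 against 3 libraries allows, and adjusted p = 0.2 over the 8 ratios computed. The pairs were set up after counts of the immunoproteasome genes had been seen, and the 3 ratios come from the same libraries.

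**Figure D3:**
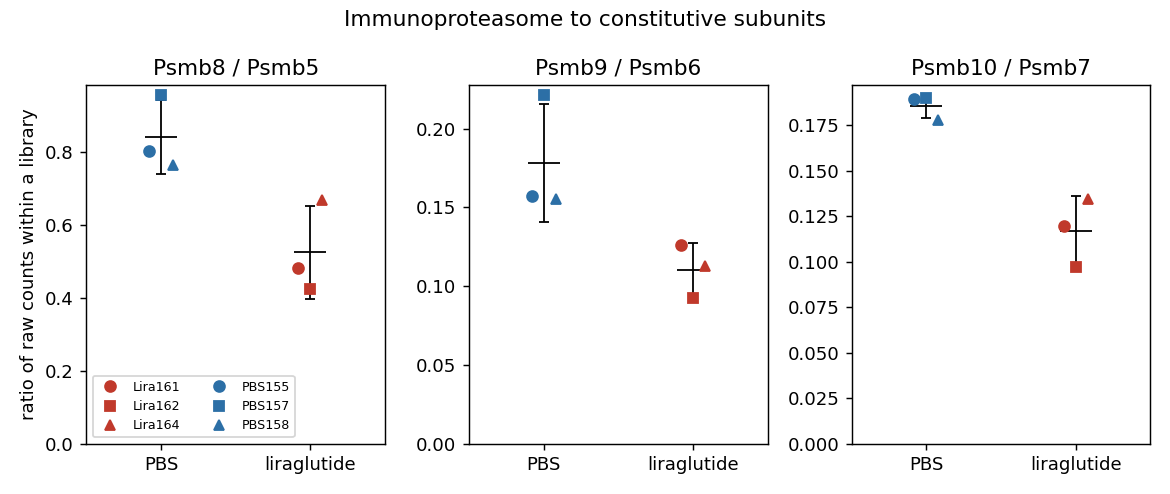
Ratio of raw counts of each immunoproteasome gene to the constitutive subunit gene it replaces, in each library, with bars for mean ± SD (3 libraries per group). Values for Psmb8 to Psmb5 are 0.426 to 0.669 under liraglutide and 0.767 to 0.958 under PBS, and the other panels are also free of overlap.

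The peptide-loading complex showed no called gene. Tapbp, which encodes tapasin, the bridge between TAP and the heavy chain, was at 67.3, 60.0 and 65.6 CPM under liraglutide and 71.3, 76.7 and 72.8 under PBS. Its groups did not overlap, but the log2 fold change of -0.19 ± 0.09 did not pass (adjusted p = 0.206). Tapbpl, the tapasin-like peptide editor, was at 16.0 ± 0.645 against 18.2 ± 1.02 CPM (-0.19 ± 0.10; adjusted p = 0.286). The transporter genes differed in sign, Tap1 at 29.1 ± 3.67 against 34.1 ± 2.39 CPM (-0.23 ± 0.11; adjusted p = 0.244) and Tap2 at 26.8 ± 2.50 against 24.6 ± 1.00 CPM (0.12 ± 0.10; adjusted p = 0.497). Tap1 and Psmb9 overlap by 212 bp of exon on opposite strands, and Tapbp has 904 bp of exon in common with the predicted gene Gm19412 on the opposite strand.

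Nlrc5, the activator that binds the X and Y box factors of class I promoters, was at 29.5, 23.5 and 26.5 CPM under liraglutide and 29.4, 33.9 and 31.8 under PBS. Lira161 lay just above PBS155, so the groups overlapped, and the log2 fold change of -0.26 ± 0.11 did not pass (adjusted p = 0.182). Among 22 genes of the MHC enhanceosome and interferon gamma signalling, none was called. Their median log2 fold change was -0.14, and 6 had an unadjusted p below 0.05. DESeq2 called 2 of them lower. Stat2 had the smallest p, at 59.7 ± 5.91 against 80.8 ± 11.05 CPM (-0.44 ± 0.12; adjusted p = 0.0560). Without library Lira164, 4 of the 22 were called lower. That omission called 11.7% of all tested genes either way, the largest share of any setting.

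Before it meets the loading complex, a new class I heavy chain is folded by chaperones of the endoplasmic reticulum, and here several genes fell. Of 12 tested folding partners and translocation genes, 5 fell and none rose (41.7%, against 8.77% of all genes), with a median log2 fold change of -0.37. Pdia3, which encodes ERp57, the thiol partner of tapasin, fell from 434 ± 20.6 to 291 ± 42.5 CPM (-0.58 ± 0.13; adjusted p = 0.0242). Calr, which encodes calreticulin, the lectin chaperone of the loading complex, fell from 779 ± 41.9 to 558 ± 33.1 CPM (-0.48 ± 0.11; adjusted p = 0.0279). Pdia4 and Pdia6, general disulfide isomerases, fell by 0.62 and 0.73 on the log2 scale, and Sec61b, of the translocation channel, by 0.43. These proteins fold many secreted and membrane proteins besides class I. This count of lower genes became 0 when Lira161 was left out, 1 for Lira162, 6 for Lira164, 4 for PBS155, 2 for PBS157 and 1 for PBS158.

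Of the 9 genes of the class II route, 8 had a log2 fold change above 0 and Ifi30 one below 0, with wide spread among libraries and no call. H2-Aa, the alpha chain gene of I-A (chromosome 17, 34282744 to 34287823), was at 19.4, 24.4 and 33.5 CPM under liraglutide and 16.8, 17.3 and 12 under PBS. The groups did not overlap, with Lira164 highest and PBS158 lowest, and the log2 fold change was 0.75 ± 0.22 (95% interval 0.24 to 1.25; adjusted p = 0.0758). Its partner H2-Ab1 was at 20.0, 20.8 and 29.9 against 12.1, 18.5 and 9.17 CPM (0.83 ± 0.28; adjusted p = 0.112). H2-Eb1, the I-E beta chain gene, was at 14.6, 18.6 and 22.5 against 11.2, 14.9 and 8.93 CPM (0.67 ± 0.21; adjusted p = 0.0921), with PBS157 just above Lira161. Without library PBS157, H2-Ab1 and H2-Eb1 passed (adjusted p = 0.0242 and 0.0428). With any other library left out neither passed (largest edgeR adjusted p = 0.237 for each).

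Cd74 encodes the invariant chain, which guides class II molecules to endosomes and blocks their groove on the way. It was at 46.1, 42.6 and 63.2 CPM under liraglutide and 32.6, 33.2 and 17.5 under PBS. All liraglutide libraries were above all PBS libraries, again with Lira164 highest and PBS158 lowest, and the change of 0.86 ± 0.27 did not pass (adjusted p = 0.105). The genes of the peptide editor H2-DM were low, H2-DMa at 2.56 ± 0.759 against 1.505 ± 0.639 CPM and H2-DMb1 at 2.56 ± 0.553 against 1.71 ± 0.566 CPM. Exons of H2-DMa overlap those of Brd2 on the opposite strand over 360 bp. Ctss, the protease that removes the invariant chain, was at 30.0 ± 6.31 against 19.5 ± 7.18 CPM (0.61 ± 0.30; adjusted p = 0.260). Ifi30, a thiol reductase of the endosome, was the class II gene with a value below 0, at 11.6 ± 1.84 against 12.3 ± 2.03 CPM (-0.09 ± 0.16; adjusted p = 0.770).

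Ciita, the activator of class II genes, had 8 to 49 counts per library and was at 0.820, 0.927 and 2.04 CPM under liraglutide and 1.28, 1.03 and 0.384 under PBS. Lira164 and PBS158 were again the extremes, and the groups overlapped (0.47 ± 0.49; 95% interval -0.64 to 1.57; adjusted p = 0.590). The log2 fold change was -0.07 without Lira164. Of 16 genes of the endosomal class II route outside the members, Cd9, a tetraspanin gene, rose (1.03 ± 0.21; adjusted p = 0.0191) and none fell, with a median of 0.17. This is 6.25% of the list, below the 8.77% called over all tested genes. The Cd9 call ended when Lira161, Lira162, PBS155 or PBS158 was left out (largest adjusted p = 0.0769). Of 8 tested MHC and CD1 genes outside the members none was called and none had an unadjusted p below 0.05 (0 with DESeq2 as well). Hfe, an iron-sensing relative of class I, had the smallest p (0.22 ± 0.11; adjusted p = 0.267).

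**Figure D4:**
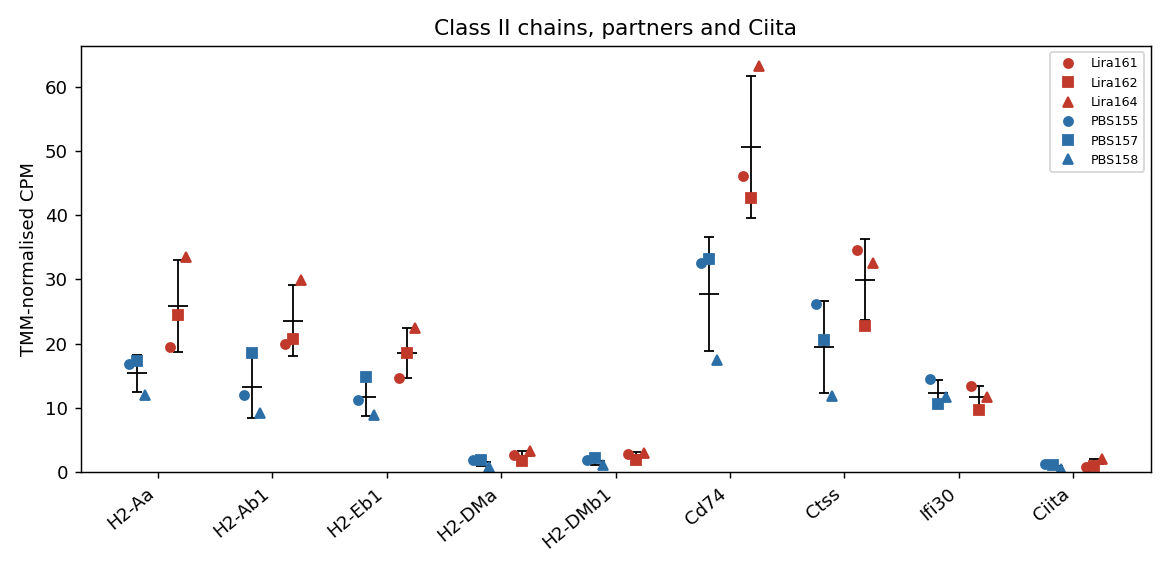
CPM of class II chain genes, their partners and Ciita in each library, with bars for mean ± SD (3 libraries per group). Lira164 is the highest and PBS158 the lowest library for H2-Aa (33.5 and 12), H2-Ab1 (29.9 and 9.17), H2-Eb1 (22.5 and 8.93) and Cd74 (63.2 and 17.5).

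Markers of the cells that make class II also differed among the libraries. The mean log2 level of the 8 class II chain and partner genes, relative to the PBS mean, was 0.60, 0.41 and 0.92 in the liraglutide libraries and 0.20, 0.27 and -0.47 in the PBS libraries. For 12 Kupffer cell and macrophage markers it was 0.97, 0.30 and 0.91 against 1.05, -0.19 and -0.87, and their summed level ranged from 289.9 to 456 CPM under liraglutide and 130.5 to 466 under PBS. For 8 sinusoidal endothelial markers the level was 0.37, 0.78 and 1.06 against 0.53, -0.19 and -0.34. Library PBS158 was the lowest for both marker lists and for class II. It was also the lowest for stellate (-0.55), B cell (-0.45), pan-leukocyte (-0.41), dendritic cell, neutrophil and monocyte, and T and NK cell markers. For cholangiocyte and hepatocyte markers it was not the lowest. PBS155 was the highest of all for macrophage markers and stood at 0.20 for class II. All 12 macrophage and all 8 endothelial markers in the table passed the filter, and none was at 0.

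Of the 12 macrophage markers none was called and 11 had values above 0 (median 0.53), and 1 had an unadjusted p below 0.05. This was Cd163, a scavenger receptor gene, at 20.2 ± 2.32 against 9.91 ± 4.51 CPM (1.02 ± 0.29; adjusted p = 0.0793). DESeq2 called 1 of the 12. Of the 8 endothelial markers Clec4g rose (0.78 ± 0.17; adjusted p = 0.0250), which is 12.5% of the list against 8.77% of all tested genes, and all 8 had values above 0 (median 0.74). With PBS155 left out, the PBS library highest in both lists, 6 endothelial and 4 macrophage markers were called higher. In that setting 7.56% of all tested genes were called either way. Leaving out the PBS library in which these markers were highest lowers their PBS mean by construction. The added calls therefore cannot show whether the markers rose. The Clec4g call ended when Lira161, Lira162, PBS157 or PBS158 was left out (largest adjusted p = 0.0884). Of 10 dendritic cell markers 5 passed the filter (Flt3, Xcr1, Cd209a, Ccr7 and Clec10a did not), and of 7 B cell markers 5 did (Pax5 and Blk did not). The summed level of the 5 tested dendritic cell markers was 8.997 to 10.03 CPM under liraglutide against 6.19 to 9.16, and that of 5 B cell markers 3.29 to 4.59 against 2.64 to 5.57, with no called gene in either list (none at an unadjusted p below 0.05, and 0 with DESeq2). The part of these cells in the class II values was not tested. Without PBS158 the median of the 9 class II route genes was 0.44, and without PBS157 it was 0.84.

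**Figure D5:**
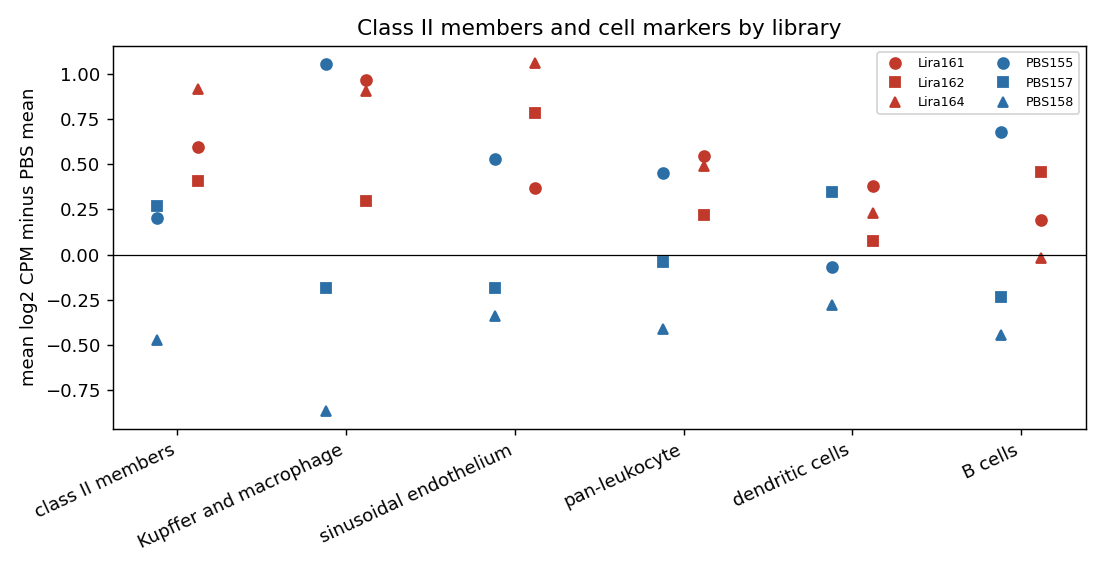
Mean log2 CPM of the 8 class II chain and partner genes and of 5 lists of cell markers in each library, relative to the mean of the PBS libraries. PBS158 is the lowest library for the class II genes (-0.47) and the macrophage markers (-0.87), and PBS155 is the highest for the macrophage markers (1.05).

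The class I-like molecules carry lipids or antibodies in place of peptides. Cd1d1, which presents lipids to natural killer T cells, abundant in mouse liver, was at 271, 241 and 229.8 CPM under liraglutide and 275, 322 and 357 under PBS. The groups did not overlap, though Lira161 lay next to PBS155, and the change did not pass (-0.36 ± 0.13; adjusted p = 0.105; 95% interval -0.64 to -0.08). Its paralog Cd1d2 held 19.1% of the 50-letter fragments of Cd1d1 and had 9 to 16 counts per library. Fcgrt, the neonatal Fc receptor gene, whose product rescues IgG and albumin from breakdown, was at 263, 263 and 258 against 218, 240.3 and 239 CPM. All liraglutide libraries were above all PBS libraries by a narrow margin (0.17 ± 0.10; adjusted p = 0.304).

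H2-Ke6 lies in the MHC region by position only: it encodes the hydroxysteroid dehydrogenase Hsd17b8, which has no known part in antigen presentation. It was at 67.8, 61.3 and 61.6 CPM under liraglutide and 58.9, 68.0 and 76.6 under PBS, with full overlap (-0.09 ± 0.11; adjusted p = 0.642). The annotated gene Gm20427 covers 86.4% of its exon length on the same strand, so its count is uncertain.

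Interferon-stimulated genes, which share inducers with the class I route, were measured in the same fit. Of 42 tested, 13 fell and none rose (31.0%, against 8.77% of all genes), and their log2 fold changes lay between -1.87 and -0.48. The smallest p-values were those of Ifit1 (-1.87 ± 0.23), Isg15 (-1.28 ± 0.18) and Ifih1 (-0.73 ± 0.11), with edgeR adjusted p between 0.00573 and 0.00669, while other called genes such as Mx1 (-1.36 ± 0.28) and Ifit3 (-1.35 ± 0.24) fell by more than Ifih1. The 3 genes of smallest p were called under every alternative in which they were tested. The number that fell was 5 when Lira161 was left out, 6 for Lira162, 21 for Lira164, 10 for PBS155, 9 for PBS157 and 5 for PBS158, and it was 9 when counts were scaled by library totals.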

How the data were processed

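The deposited file is a single table of raw counts per gene symbol for 6 libraries, which the authors left as whole numbers without normalization. The submitters' processing notes name STAR and the build mm10. No source used here names the counting tool, the annotation or the strand setting. Column names carry the group but none of the triplicate numbers, and each column was tied to its group alone. Libraries of a group differed by more than sampling noise (chi-square per degree of freedom between 31.0 and 61.3).

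After filterByExpr (12626 genes kept) and TMM scaling, edgeR 4.0.16 under R 4.3.3 was used for estimateDisp, robust glmQLFit and glmQLFTest, with a term for group. Tests were two-sided, with Benjamini-Hochberg adjustment over all tested genes. The SE is the size of the log2 fold change divided by the square root of F, and its 95% interval uses the degrees of freedom of the fit. List levels are means of log2 CPM with a prior count of 2. The procedure was also run on simulated counts with a common dispersion for all genes. Such counts do not copy the uneven spread among the real libraries, and no result here rests on them. Alternatives were DESeq2 1.42.0 (its Wald test, and its size factors within edgeR), limma-voom (limma 3.58.1), library totals, no low-count filter, a mean CPM of at least 5, and each of the 6 libraries left out. Positions, exon lengths and transcript fragments came from GENCODE M21 (GRCm38) and promoters from RefSeq (GRCm38.p6).

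Members and lists were chosen with earlier results of these data known. By rule, every member is named, with library values for called members and, in roles with none called, for the members with the smallest p and the highest mean. From each other list up to 3 called genes are named, or the gene with the smallest p. Library values of further members, the ratios, Calr, Sec61b, Psmb5, Psmb6, Psmb7, Mx1, Ifit3 and Cd1d2 were added after values had been seen. So were Cd3d, Cd3e, Cd3g, Cd8a, Gzma, Klrb1c, Ncr1, Nkg7 and the H2-Q5, H2-Q8, H2-Q9, H2-T9 and H2-T10 rows.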

Additional observations from a re-analysis of the deposited data

How the results depend on the processing

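No paired analysis was possible because the column numbers match none of the triplicate numbers in the labels. The count of members called higher, 0, was 4 with the DESeq2 Wald test and 0 to 2 with each library left out in turn. The count called lower, 1, was 2 with DESeq2 and without the low-count filter, and 0 to 2 with each library left out. Of all tested genes, 4.08% were called higher (1.27% to 5.42% with each library left out) and 4.69% lower (1.82% to 6.27%). These shares fell more than 1.5-fold without Lira161, Lira162, PBS157 or PBS158 and stayed within that under the other alternatives. Of 92 results, 8 uncalled log2 fold changes turned sign. H2-K1 was at 0.014 with library totals and H2-Q4 at -8.3e-05 with DESeq2. With each library left out, H2-K1 lay between -0.13 and 0.023, H2-D1 between -0.029 and 0.27, H2-Q4 between -0.074 and 0.061, H2-T24 between -0.070 and 0.18, Psme1 between -0.097 and 0.15, Ifi30 between -0.20 and 0.039, Ciita between -0.066 and 0.81 and H2-Ke6 between -0.20 and 0.0018. The cause was not tested. Depth limits H2-Q1, H2-T24, H2-M3, H2-DMa, H2-DMb1 and Ciita, which had at most 133 counts in any library.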

Other observations

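Some marker genes of other liver cells changed in the same fit. Spp1, which encodes osteopontin and stood in the cholangiocyte list, fell from 36.3 ± 4.01 to 20.5 ± 1.17 CPM (-0.82 ± 0.11; edgeR adjusted p = 0.00508), and it was called whichever of the 6 libraries was left out. The other 4 cholangiocyte markers were not called, with log2 fold changes between -0.55 and -0.33. Cd4, a coreceptor for class II on T cells, fell from 2.33 ± 0.455 to 0.599 ± 0.246 CPM (-1.97 ± 0.35; edgeR adjusted p = 0.0116), with 10 to 18 counts per liraglutide library and 52 to 59 per PBS library. Cd4 stood apart in sign from the other 3 tested markers of T and NK cells, whose values were above 0 (list median 0.95), and all 3 rest on 1 to 18 counts per library. Klrb1c (1.59 ± 0.57; edgeR adjusted p = 0.117) and Nkg7 (1.26 ± 0.49; edgeR adjusted p = 0.144), both genes of NK cells, had no library of PBS above one of liraglutide in CPM, and Cd3g was at 0.64 ± 0.49 (edgeR adjusted p = 0.459). Cd3d and Cd3e, with 1 to 14 counts per library, were not tested, and their CPM values were also higher in every liraglutide library. Cd8a, Ncr1 and Gzma were not tested either, and their groups overlapped. Over all tested genes, groups did not overlap for 31.3%. Of 8 hepatocyte markers Hnf4a rose (0.53 ± 0.13; edgeR adjusted p = 0.0338) and Serpina1c, which has close paralogs, fell (-0.76 ± 0.15; edgeR adjusted p = 0.0159). The Hnf4a call ended when Lira161, Lira162, PBS155 or PBS157 was left out, and that of Serpina1c when Lira162 or PBS158 was.

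In 5 other marker lists no gene passed the edgeR test, and the gene with the smallest p in each is named here. Among pan-leukocyte markers it was Coro1a, an actin-binding protein gene of leukocytes, at 4.98 ± 0.200 against 3.47 ± 0.629 CPM (0.52 ± 0.19; adjusted p = 0.129). Among stellate cell markers it was Hgf, the hepatocyte growth factor gene, at 17.9 ± 4.81 against 9.42 ± 4.53 CPM (0.92 ± 0.37; adjusted p = 0.184). Among 3 tested neutrophil and monocyte markers it was Ly6c2 (1.03 ± 0.60; adjusted p = 0.314), among dendritic cell markers Itgax (0.84 ± 0.43; adjusted p = 0.256) and among B cell markers Cd79b (0.49 ± 0.48; adjusted p = 0.567). DESeq2 called 1 stellate marker higher and none in the other 4 of these lists.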
